A study of Mus musculus with 35 samples.

Results

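What went on changing in NmuMG cells while c-Jun N-terminal kinase (JNK) was inhibited is described here, as JNKi at 96 h against JNKi at 24 h. Members were all genes with a mean of at least 10 normalized reads in either group, which held for 12728 of the 20261 genes of the deposited table. The series has 35 samples of NmuMG, an epithelial line from the mouse mammary gland, labelled wild type with strain E9; 20 of them make up the inhibitor experiment, as JNKi or DMSO (the vehicle) at 24, 48, 72 and 96 h and at 7 days, with 2 libraries per group. The compound called JNKi is not named in the labels. The protocol attached to every sample adds transforming growth factor β (TGF-β) at 2 ng/ml, renewed with the medium every 2 days, so both arms share it as far as the labels tell. Whether the 2 libraries of a group stem from separate cultures is not labelled. The p-values therefore cover only the spread between libraries of a group, shared in the model over all 10 groups, which may be technical. The 4 groups used are JNKi at 96 h, JNKi at 24 h, DMSO at 96 h and DMSO at 24 h, with the JNKi libraries at 48 and 72 h between them.

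TGF-β drives NMuMG cells through an epithelial-mesenchymal transition (EMT), in which epithelial junctions and keratins are lost and stress fibres and matrix are gained. It signals through Smad transcription factors and also through kinases, among them JNK, which phosphorylates Jun, a subunit of the transcription factor AP-1. Comparing both arms over the same interval shows which changes with time were also measured with the inhibitor present. The inhibitor experiment has no library before 24 h and none labelled as free of TGF-β. Effects of TGF-β and of time in culture therefore cannot be told apart here.

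Depth, in M reads recovered from the table, was 43.8 and 34.9 in JNKi cells at 96 h, 25.8 and 18.8 in JNKi cells at 24 h, 42.8 and 32.5 in DMSO cells at 96 h, and 20.7 and 21.0 in DMSO cells at 24 h. Reads on 523 olfactory and vomeronasal receptor genes, which mammary cells are not known to use, summed to 4.02 and 4.21 RPM in JNKi cells at 96 h, against 1.71 and 1.01 at 24 h, and to 2.71 and 2.61 RPM in DMSO cells at 96 h, against 1.5 and 1.0 at 24 h. The summed luminal markers, with Krt8 and Krt18 foremost, held 136215 and 129807 normalized reads at 96 h and 352437 and 398639 at 24 h in JNKi cells and were thus the most abundant of the marker lists at both times, although Foxa1, Pgr, Cited1 and Kit were at 0 in both 24 h libraries. The basal list summed to 13499 and 11748 at 96 h and to 18302 and 16768 at 24 h. The fibroblast list summed to 1164 and 979 at 96 h and to 734 and 692 at 24 h, with Lum and Fap at 0 in all 4 libraries. The leukocyte list summed to 1724 and 1453 at 96 h and to 2139 and 2492 at 24 h, with Cd3e and Emr1 at 0 in 3 of 4. The endothelial list summed to 718 and 678 at 96 h and to 508 and 503 at 24 h, with Emcn at 0 in all 4, and the adipocyte list to at most 80.9 in any of them. With reads thinned to equal depth, 7178 of 14040 genes tested were called at 96 h against 24 h in JNKi cells, and without thinning 8315 of 13896 were. The part of other cells in the results was not tested.

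With JNK inhibited, the transcriptome still changed widely between 24 h and 96 h. Of the 12728 members, 3993 rose and 4016 fell (limma, Benjamini-Hochberg adjusted p under 0.05), beside 59.8% called of the 13896 genes tested. The change was at least 2-fold in 1382 that rose and 1218 that fell, beside 12% and 8.88% of all genes tested (20.9% together). The median log2 change over all members was 0.02. Of all genes tested, 30.8% were called higher and 29% lower, the background for the counts of each gene list below. Changes are on the scale of log2(normalized reads + 1), where those of low genes come out too small. Of the members, 11871 had a mean of at least 10 at both times, 625 only at 96 h and 232 only at 24 h. Of the 625, 461 rose and 164 did not pass, and 17 were listed at 0 in both 24 h libraries. Of the 232, 147 fell. These genes met the level limit at 1 time only, so the limit itself fixed their direction. Those called are also counted among the 3993 that rose and the 4016 that fell. Members just inside the level limit were A730037C10Rik, Adam28 and Ism1, at 10.0, and those just outside were 1700026L06Rik, Cyp24a1 and Fam154b, at 9.95.

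The genes with the highest changes were low at 24 h, and those given by value here reached the level limit only at 96 h. Speg, a kinase of striated muscle, had 270 and 271 normalized reads in JNKi cells at 96 h, against 2.2 and 0 at 24 h. Mybpc3, cardiac myosin binding protein C, had 295 and 185 at 96 h, against 2.2 and 0 at 24 h. Sspo and Atp13a4 had 55.6 and 58.6 and 65.7 and 58.6 reads at 96 h and were listed at 0 in both 24 h libraries. For these genes the 24 h level lies within a few reads of 0, so no fold is given. Reads on near-silent receptor genes also rose between these times, and the part of such background in low genes was not tested. Angpt4, an angiopoietin ligand of the receptor Tie2, had 416 and 367 at 96 h against 11.2 and 4.8 at 24 h, a log2 change of 5.54 ± 0.33 (SE, n = 2 and 2; limma adjusted p = 2.24e-09). Stmn4, a tubulin-binding stathmin, had 235 and 284 against 6.7 and 3.2 (5.51 ± 0.36), and Slc1a1, a glutamate transporter, had 257 and 280 against 3.4 and 6.4 (5.56 ± 0.60). Gpr141, Actg2, Serpinb9e, Car6 and Cpeb1 complete the 12 highest. In none of the 12 did the libraries of the 2 times overlap, which the rule for naming them required.

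The genes with the lowest changes were low or much reduced at 96 h. Of those given by value here, Ddc, Gata5 and Tmigd1 reached the level limit only at 24 h. Lgals2, a galectin of the gut, had 745 and 494 normalized reads in JNKi cells at 96 h, against 16414 and 15430 at 24 h, a log2 change of −4.71 ± 0.39 (SE, n = 2 and 2; limma adjusted p = 5.85e-08). Ddc, the decarboxylase of dopamine and serotonin synthesis, had 3.8 and 4.8 against 295 and 254 (−5.70 ± 0.45). Gata5, a GATA transcription factor of endoderm and heart, had 1.9 and 1.6 against 116 and 71.9, and Tmigd1, a membrane protein of kidney and gut epithelium, had 3.8 and 0.8 against 389 and 217. Serpina1b and Serpina1a, copies of α1-antitrypsin, had 162 and 105 against 2813 and 3336, and 46.7 and 23 against 866 and 713. They are near-identical, so how reads were divided between them is uncertain. Apoc2, Clrn3, Mxd3, Gjb1, Dio1 and Eps8l3 complete the 12 lowest.

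Cell division genes fell together. All 35 measured genes of the mitosis list fell in JNKi cells, beside 29% called lower of all genes tested, with a median log2 change of −1.93 against 0.02 over all members. Aurkb, a kinase of the chromosomal passenger complex, had 263 and 249 normalized reads at 96 h against 2009 and 2791 at 24 h, a log2 change of −3.21 ± 0.16 (SE, n = 2 and 2; limma adjusted p = 5.72e-10). Ccnb2, cyclin B2, had 170 and 160 against 1159 and 1345 (−2.91 ± 0.14). Mki67, the proliferation marker Ki-67, had 1432 and 1374 against 7863 and 8597 (−2.55 ± 0.13), and Top2a, which untangles chromosomes, had 4376 and 4239 against 15556 and 18079 (−1.96 ± 0.10). In bulk RNA, fewer cells of a kind and less RNA per cell cannot be told apart. Of 46 DNA replication genes, 45 fell, with a median of −1.30; Tk1, thymidine kinase, had 225 and 215 reads against 2307 and 3314, and Pcna, the sliding clamp of the polymerase, 2969 and 3350 against 7996 and 10457.

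Promoters of the mitosis genes often held the cell cycle homology region (CHR, TTTGAA) and the CCAAT box (CCAAT), elements known from G2/M promoters. The sequences below run from 250 bases before to 50 after the RefSeq start (GRCm38.p6), 5′ to 3′ on the strand of the gene, with CHR and CCAAT matches on either strand in capitals; no 2 matches overlap. Ccnb2 lies at chr9:70421505-70421804, Top2a at chr11:99024140-99024439 and Mki67 at chr7:135716330-135716629, all on the minus strand.
Ccnb2: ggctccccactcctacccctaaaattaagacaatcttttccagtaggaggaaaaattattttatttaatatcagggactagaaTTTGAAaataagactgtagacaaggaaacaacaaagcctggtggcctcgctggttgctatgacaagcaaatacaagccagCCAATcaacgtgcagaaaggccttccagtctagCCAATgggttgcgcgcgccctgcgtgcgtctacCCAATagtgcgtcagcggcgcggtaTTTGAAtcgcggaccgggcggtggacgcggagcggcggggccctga
Top2a: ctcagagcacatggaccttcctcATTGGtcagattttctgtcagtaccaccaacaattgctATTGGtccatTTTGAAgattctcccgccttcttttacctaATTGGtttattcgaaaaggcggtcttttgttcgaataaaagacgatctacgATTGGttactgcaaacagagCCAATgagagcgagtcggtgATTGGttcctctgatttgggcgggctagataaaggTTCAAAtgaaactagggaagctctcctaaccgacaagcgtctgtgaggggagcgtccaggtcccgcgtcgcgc
Mki67: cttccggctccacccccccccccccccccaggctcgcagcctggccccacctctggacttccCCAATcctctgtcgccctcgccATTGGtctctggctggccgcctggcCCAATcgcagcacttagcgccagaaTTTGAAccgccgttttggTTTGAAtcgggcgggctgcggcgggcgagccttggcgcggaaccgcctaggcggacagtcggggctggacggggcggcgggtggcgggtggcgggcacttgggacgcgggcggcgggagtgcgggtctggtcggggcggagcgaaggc
Of 33 such windows for 31 genes of the list, 24 held the CHR letters (72.7%), against 17.9% of all 32851 windows, and 26 held CCAAT (78.8%), against 37.4%. Over windows of all members the shares were 12.1% and 38.0%. They were 19.3% and 42.9% for members that fell at least 2-fold and 12.4% and 34.5% for members that rose at least 2-fold. A match is a description of letters and not a shown binding site; 10034 of the 12728 members matched a promoter.

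Cholesterol synthesis genes fell together. All 24 cholesterol synthesis genes fell, 23 of them at least 2-fold, with a median log2 change of −2.06. Idi1, an isomerase of the isoprenoid pathway, had 415 and 344 normalized reads in JNKi cells at 96 h against 4642 and 5087 at 24 h (−3.68 ± 0.19; SE, n = 2 and 2; limma adjusted p = 7.6e-10). Cyp51, lanosterol demethylase, had 7394 and 6358 against 48930 and 61165 (−3.00 ± 0.14). Srebf2, the transcription factor that drives the pathway, itself had 5479 and 4181 against 15895 and 16572. Of 19 fatty acid synthesis genes 13 fell and 1 rose; the desaturase Scd2 had 132634 and 119372 reads against 404461 and 385536.

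Genes of general growth metabolism also fell. Ribosomal protein genes had 49 of 56 members lower and 1 higher, with a median log2 change of −0.56. Nuclear-encoded respiratory chain genes had 48 of 52 lower and 0 higher (median −0.72), and proteasome genes 29 of 33 lower and 1 higher (−0.77). Transcripts of the ribosomal and respiratory lists are short, and with the length trend of each library removed, an alternative chosen after seeing the data, 36 of 56 ribosomal genes were lower (median −0.30) and 41 of 52 respiratory chain genes (−0.47). Of 33 glycolysis and hypoxia genes, 20 fell and 8 rose. Those that fell included Ldha, lactate dehydrogenase, at 9854 and 9694 normalized reads at 96 h against 33352 and 45557 at 24 h, and Pkm2, pyruvate kinase, at 29555 and 28603 against 85464 and 103766. Those that rose included Vegfa, an angiogenic growth factor, at 27142 and 28350 against 7048 and 8263, and Hk2, a hexokinase, at 13148 and 12165 against 3317 and 3446. Of 26 genes of the NRF2 and glutathione list, 20 fell and 4 rose, among which the autophagy receptor Sqstm1 had 48641 and 53918 against 16893 and 18565. Cytosolic heat shock genes had 14 of 26 lower and 3 higher, and MHC class I presentation genes 8 of 15 lower and 1 higher.

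Of 32 genes of the amino acid response driven by ATF4, 26 rose and 0 fell, beside 30.8% called higher of all genes tested, with a median log2 change of 1.05. Ddit3, the stress transcription factor CHOP, had 1138 and 1758 normalized reads in JNKi cells at 96 h against 168 and 121 at 24 h (3.30 ± 0.25; SE, n = 2 and 2; limma adjusted p = 2.69e-08). Cth, which makes cysteine from cystathionine, had 2933 and 3208 against 223 and 324 (3.51 ± 0.34). Asns, asparagine synthetase, had 10636 and 10325 against 3910 and 4247 (1.36 ± 0.16). Atf4 itself had a log2 change of 0.33 and did not pass. Of 33 lysosome genes, 25 rose and 2 fell (median 0.69), with the cathepsin gene Ctsl at 32591 and 32961 reads against 9204 and 7720, and its relative Ctsh, one of the 2 that fell, at 731 and 601 against 4123 and 4985. Clustered histone genes had 16 of 18 measured members higher and 0 lower (median 2.30): Hist1h1c, a linker histone, had 3557 and 3332 reads against 975 and 959, and Hist1h1d had 219 and 175 against 27.0 and 19.2. Most transcripts of these histone genes end without a poly(A) tail and several genes are near copies, so their levels depend on library making and read assignment.

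**Figure D1:**
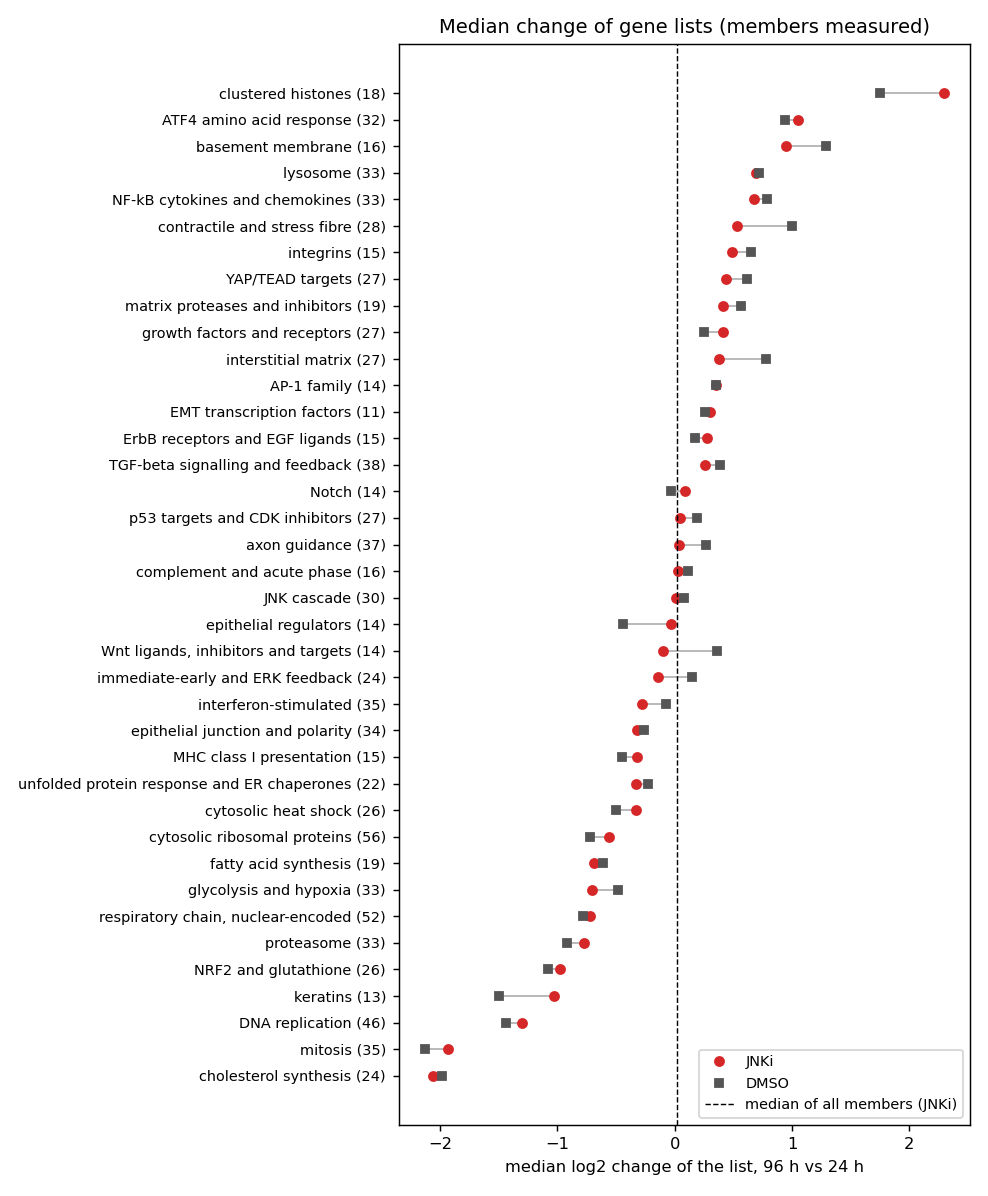
Median log2 change from 24 h to 96 h (horizontal axis) of the gene lists with at least 10 measured members, in JNKi cells (circles) and DMSO cells (squares); the dashed line is the median of all members in JNKi cells. Clustered histones are at the top (2.30 in JNKi, 1.75 in DMSO) and cholesterol synthesis at the bottom (−2.06 in JNKi, −1.98 in DMSO), and the contractile list shows 0.53 in JNKi and 1.00 in DMSO.

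Of the kinds of genes known as hallmarks of EMT, many contractile and matrix genes rose under JNK inhibition, and some fell or did not pass. Of 13 keratins 9 fell. The contractile and stress fibre list had 18 of 28 members higher and 4 lower (median log2 change 0.53). Tagln, the actin-binding protein transgelin, had 1947 and 2228 normalized reads in JNKi cells at 96 h against 74.2 and 52.7 at 24 h (5.04 ± 0.22; SE, n = 2 and 2; limma adjusted p = 2e-10). Acta2, smooth muscle actin, had 758 and 627 against 30.4 and 28.8 (4.50 ± 0.29), and Acta1, skeletal actin, had 1301 and 1343 against 88.8 and 35.1 (4.54 ± 0.36). The 4 that fell were Mylk, Tagln2, Tpm4 and Vim; Vim, vimentin, a usual marker of mesenchymal cells, had 35179 and 32656 at 96 h against 74721 and 77667 at 24 h (−1.17 ± 0.10).
The promoter window of Acta1, at chr8:123894726-123895025 on the minus strand (GRCm38.p6, RefSeq), is shown because it holds the CArG box, the element bound by serum response factor, in capitals.
Acta1: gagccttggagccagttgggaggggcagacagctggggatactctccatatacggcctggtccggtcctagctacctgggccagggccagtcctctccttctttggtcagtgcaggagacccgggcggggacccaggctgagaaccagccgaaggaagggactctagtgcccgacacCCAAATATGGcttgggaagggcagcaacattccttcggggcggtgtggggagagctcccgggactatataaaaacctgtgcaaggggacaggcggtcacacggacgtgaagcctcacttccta
Of 33 windows of 26 genes of the contractile list, 7 held a CArG box (21.2%). The share was 1.63% of all windows, 1.3% of the windows of members and 1.55% for members that rose at least 2-fold.

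Matrix genes moved in both directions. Of 27 interstitial matrix genes 14 rose and 5 fell (median 0.38). Fn1, fibronectin, had 289897 and 289609 normalized reads in JNKi cells at 96 h against 63372 and 45447 at 24 h (2.43 ± 0.18; SE, n = 2 and 2; limma adjusted p = 1.66e-08). Tnc, tenascin C, had 36153 and 32690 against 11339 and 8803 (1.78 ± 0.13), whereas Fbln1, fibulin 1, had 49.3 and 35.7 against 349 and 339 (−3.00 ± 0.28). Of 16 basement membrane genes 12 rose and 3 fell (median 0.95); Col4a1, a collagen IV chain, had 35511 and 35544 against 10502 and 10792 (1.74 ± 0.12). Of 15 integrin genes 7 rose and 4 fell; the fibronectin receptor chain Itga5 had 9515 and 8930 against 2414 and 2235, and Itgb4, the laminin-binding chain of hemidesmosomes, 6453 and 5013 against 12585 and 11249.

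Matrix proteases and their inhibitors had 10 of 19 members higher and 3 lower (median 0.41). Mmp9, gelatinase B, had 1075 and 1041 normalized reads in JNKi cells at 96 h against 47.2 and 35.1 at 24 h (4.67 ± 0.34; SE, n = 2 and 2; limma adjusted p = 1.52e-08). Mmp13, collagenase 3, had 421 and 293 against 145 and 118 (1.42 ± 0.25). Its promoter window, at chr9:7272264-7272563 on the plus strand (GRCm38.p6, RefSeq), is shown because it holds the AP-1 site (TGANTCA), in capitals, the element bound by dimers with Jun.
Mmp13: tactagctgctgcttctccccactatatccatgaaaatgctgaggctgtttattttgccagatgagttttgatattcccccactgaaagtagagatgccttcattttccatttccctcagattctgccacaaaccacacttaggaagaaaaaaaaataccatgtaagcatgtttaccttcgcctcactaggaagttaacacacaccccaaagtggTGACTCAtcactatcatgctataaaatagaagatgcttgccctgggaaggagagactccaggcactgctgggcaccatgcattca
Of 13 windows of 12 genes of the protease list, 4 held the AP-1 site (30.8%). The share was 7.81% of all windows and 5.7% of the windows of members. It was 8.04% for members that rose at least 2-fold and 9.0% for those that fell at least 2-fold. No match speaks to binding in these cells.

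Epithelial genes were split. Of 34 junction and polarity genes 17 fell and 8 rose (median −0.32). Cdh1, E-cadherin, had 8279 and 7045 normalized reads in JNKi cells at 96 h against 13779 and 13911 at 24 h (−0.86 ± 0.14; SE, n = 2 and 2; limma adjusted p = 5.96e-05). Cdh2, N-cadherin, had 13747 and 13752 against 5980 and 5723 (1.23 ± 0.09), so Cdh2 and Cdh1 moved in opposite directions. Ppl, the desmosomal linker periplakin, had 933 and 770 against 4246 and 3429, while Cldn12, a claudin, had 24011 and 22816 against 18042 and 16924. Keratins had 9 of 13 members lower and 0 higher (median −1.03): Krt8 had 59280 and 54021 against 176094 and 209386 (−1.76 ± 0.15), and Krt5, a basal keratin, 18.3 and 19.8 against 152 and 307. The epithelial transcription factor Ehf had 337 and 254 against 1718 and 1737 (−2.56 ± 0.20).

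Transcription factors of EMT did not move as a group. Of 11 measured, 4 rose (Zeb1, Zeb2, Snai2 and Hmga2) and 3 fell (Snai1, Tcf3 and Ets1). Zeb2 had 1601 and 1613 normalized reads in JNKi cells at 96 h against 776 and 674 at 24 h (1.15 ± 0.11; SE, n = 2 and 2; limma adjusted p = 2.98e-07). Zeb1 had 2461 and 2342 against 1418 and 1294 (0.82 ± 0.10). Snai2 was low, at 27.2 and 28.5 against 2.2 and 4.8, and Snai1 had 316 and 366 against 681 and 551 (−0.85 ± 0.22).

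Genes of the JNK pathway were mixed. An inhibitor acts on kinase activity, so no transcript here checks that JNK was blocked. Mapk8, which encodes JNK1, had 981 and 1015 normalized reads in JNKi cells at 96 h against 757 and 754 at 24 h (0.40 ± 0.13; SE, n = 2 and 2; limma adjusted p = 0.0165). Mapk9, which encodes JNK2, had 2201 and 2041 against 2459 and 2115 and did not pass (adjusted p = 0.255). Jun had 2213 and 2565 against 2061 and 2248 (adjusted p = 0.421), and its partner Fosl1 had 261 and 250 against 315 and 329 (adjusted p = 0.114); neither passed. Of 14 AP-1 family genes 6 rose and 0 fell; Atf3, also a stress gene of the ATF4 response, had 3813 and 4537 against 644 and 1254. Of 30 JNK cascade genes 9 rose and 5 fell, beside 30.8% called higher and 29% lower of all genes tested.

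Of the other signalling lists, 19 of 38 TGF-β genes rose and 7 fell, beside 30.8% called higher and 29% lower of all genes tested. Ltbp3, a binding protein of latent TGF-β, had 18584 and 17046 normalized reads in JNKi cells at 96 h against 14229 and 12970 at 24 h (0.39 ± 0.09; SE, n = 2 and 2; limma adjusted p = 0.001), and its relative Ltbp2 had 131 and 128 against 6.7 and 11.2. Of 27 YAP/TEAD targets 13 rose and 3 fell; Ankrd1 had 69663 and 60236 against 21919 and 22716. Of 33 NF-kB cytokine and chemokine genes 16 rose and 4 fell: Ccl20, a chemokine, had 344 and 312 against 45.0 and 28.8 (3.15 ± 0.37), Csf1, the macrophage growth factor, 23465 and 24399 against 9053 and 10712, and Il33, an alarmin, 690 and 421 against 3106 and 2956 (−2.49 ± 0.57). Wnt7a, a secreted Wnt ligand, had 7240 and 8095 against 634 and 663 (3.56 ± 0.18). Interferon-stimulated genes had 6 of 35 higher and 10 lower, the latter near the share over all genes tested. Of 24 immediate-early and ERK feedback genes 4 rose and 3 fell; Myc had 11574 and 12021 against 4898 and 5202 (1.22 ± 0.15).

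Further lists had members on both sides, beside 30.8% called higher and 29% lower of all genes tested. Some, such as axon guidance and epithelial regulators, lay near these shares. Of 27 p53 targets and CDK inhibitors 13 rose and 6 fell; Mdm2, the ubiquitin ligase of p53, had 144024 and 144690 normalized reads in JNKi cells at 96 h against 69221 and 70746 at 24 h, and Cdkn2c, an inhibitor of CDK4 and CDK6, 60 and 54.7 against 252 and 342. Of 22 genes of the unfolded protein response 12 fell and 6 rose: the sensor genes Atf6 and Ern1 had 4616 and 4369 against 1858 and 1650, and 1547 and 1606 against 674 and 553, while the chaperone Calr had 17131 and 16898 against 27893 and 30450. Growth factors and receptors had 12 of 27 higher and 5 lower, ErbB receptors and EGF ligands 6 of 15 higher and 3 lower, and Nrg1, an ErbB ligand, stood at 1080 and 1118 against 300 and 288. Wnt genes had 6 of 14 higher and 2 lower. Notch genes had 2 of 14 higher and 5 lower; Jag1, a Notch ligand, had 38156 and 36432 against 15234 and 16889, whereas the receptor Notch1 had 70.1 and 51.5 against 236 and 180. Axon guidance genes had 9 of 37 higher and 10 lower, complement and acute phase genes 6 of 16 higher and 7 lower, epithelial regulators 4 of 14 higher and 5 lower, and aryl hydrocarbon receptor targets 1 of 7 higher and 3 lower.

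**Figure D2:**
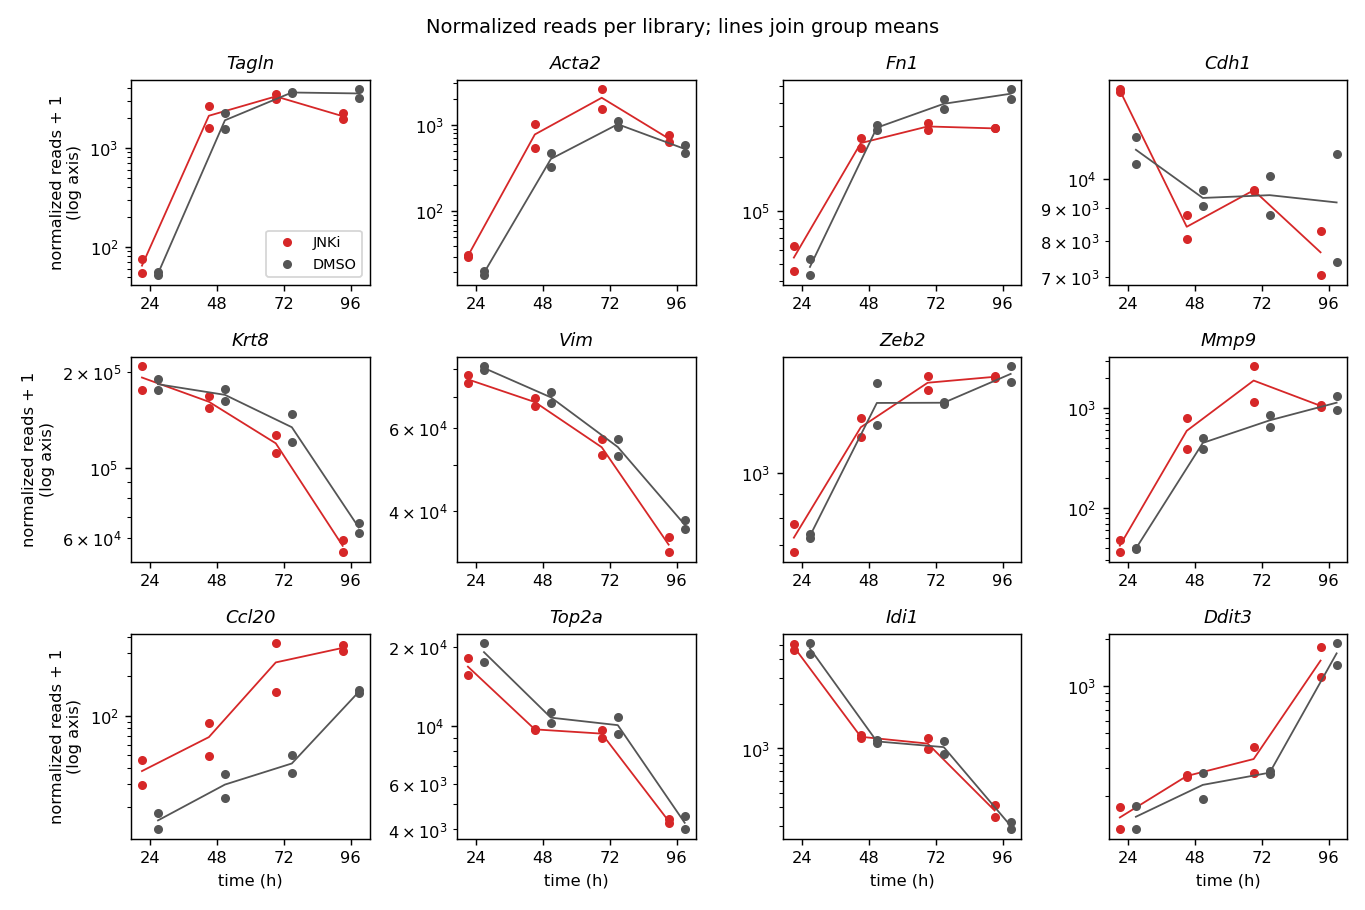
Normalized reads plus 1 (log axis) per library of 12 genes at 24, 48, 72 and 96 h, JNKi left and DMSO right at each time; points are libraries and lines join group means. Tagln and Acta2 are lowest at 24 h in both arms and Top2a and Idi1 highest there, and at 96 h the 2 Fn1 libraries of JNKi (289897 and 289609) lie below those of DMSO (482266 and 425386).

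The steps between neighbouring times were unequal. In JNKi cells 2970 members changed at 48 h against 24 h (22.1% of all genes tested were called), 13 at 72 h against 48 h (0.115%) and 3992 at 96 h against 72 h (29.1%), by limma with Benjamini-Hochberg adjustment. The 72 h step had 2168 of the 13896 genes tested (15.6%) at an unadjusted p under 0.05, and edgeR and DESeq2 on recovered reads called 5 and 198 there. Members that rose at least 2-fold by 96 h had reached a median of 36.7% of the log2 change at 48 h and 60.8% at 72 h; those that fell had reached 41.5% and 55.7%. Of the 1382 and 1218 such members, 955 (69.1%) and 871 (71.5%) moved in one direction at every step. These members were chosen by the same 24 h and 96 h libraries that enter the first and last steps. That choice favours larger first and last steps and movement in one direction. Leaving out JNKi 24 h replicate 2 or JNKi 48 h replicate 2 reduced the 3075 calls of the 48 h step to 1474 and 1654; leaving out JNKi 72 h replicate 1, JNKi 96 h replicate 1 or JNKi 96 h replicate 2 reduced the 4039 calls of the 96 h step to 2182, 2645 and 2037. In a limma model of the 24 h and 48 h JNKi groups alone, 0 genes passed the adjusted threshold and 3595 had an unadjusted p under 0.05.

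Gene groups followed different courses. Contractile genes rose early: Acta2 at 24, 48, 72 and 96 h had 30.4 and 28.8, 536 and 1007, 1514 and 2582, and 758 and 627 normalized reads, and the last step was a fall of 1.52 on the log2 scale (limma adjusted p = 0.00104). Mcam, a cell adhesion molecule, had 307 and 219, 1938 and 2228, 2506 and 2216, and 1646 and 1429 at those times, and Krt17, a stress keratin, 16.9 and 16, 91.6 and 216, 122 and 151, and 32.8 and 26.1, so that its 96 h against 24 h change (0.79 ± 0.38; SE) did not pass (adjusted p = 0.0802). Snai2 stayed at 2.2 and 4.8, 3.5 and 2.5, and 4.1 and 5.6 up to 72 h, and stood at 27.2 and 28.5 at 96 h. The median of the ATF4 list lay at 0.20, 0.42 and 1.05 above its 24 h level at 48, 72 and 96 h on the log2 scale. That of the cholesterol list lay at −1.34, −1.27 and −2.06.

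**Figure D3:**
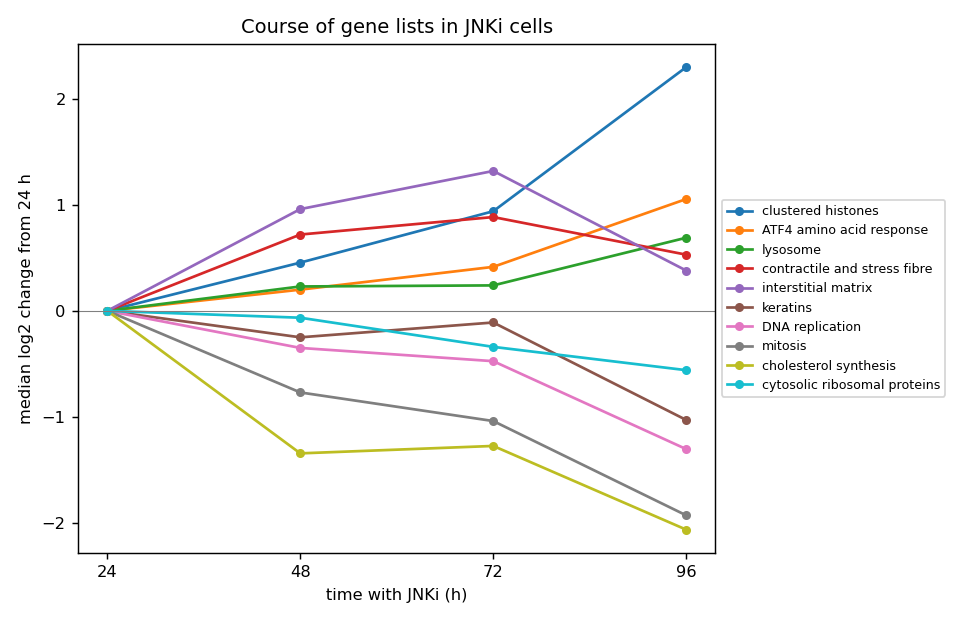
Median log2 change from 24 h (vertical axis) against time with JNKi (horizontal axis, h) for 10 gene lists. The interstitial matrix list stands at 0.96 at 48 h, 1.32 at 72 h and 0.38 at 96 h, while the mitosis list declines to −0.77, −1.04 and −1.93.

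The same interval in DMSO cells gave changes mostly in the same direction. There 8475 members changed (63.3% of all genes tested were called), and 7275 of them (85.8%) were called in the same direction with JNKi; these are 90.8% of the 8009 called with JNKi. None was called in opposite directions, and 1200 were not called with JNKi. Of 2932 members that changed at least 2-fold in DMSO cells (23.4% of all genes tested, 13.2% higher and 10.1% lower), 2711 (92.5%) were called the same way in JNKi cells, and 10 had a log2 change of the other sign. Members that rose at least 2-fold in DMSO cells had a median log2 change of 1.35 in JNKi cells and 1.53 in DMSO cells, and those that fell −1.38 and −1.50. Choosing them by the DMSO change favours a larger DMSO value. Across the 12728 members the changes had a Pearson correlation of 0.95. The comparisons share no library, but genes are not independent replicates. Same-numbered libraries of both arms also deviated together at 24 h (r = 0.73) and 96 h (r = 0.53). Noise common to both arms can raise this correlation and the shared calls, and its part was not tested. Leaving out 1 library moved the share over all genes tested, 84.6%, to between 69.6%, with replicate 2 of JNKi at 24 h left out, and 90.7%, with replicate 2 of DMSO at 24 h left out.

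**Figure D4:**
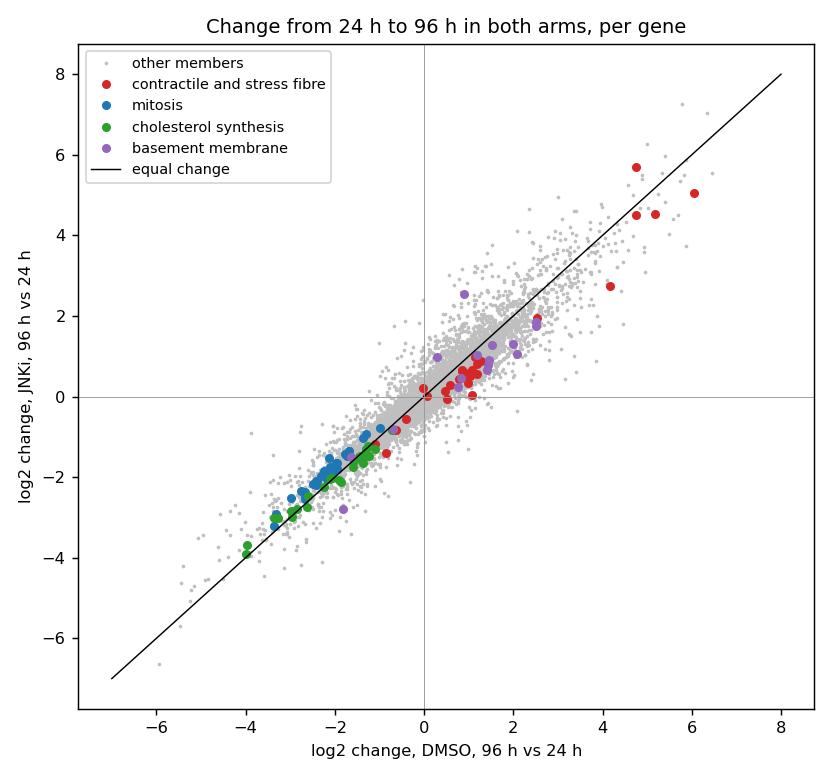
Log2 change at 96 h against 24 h per member in JNKi cells (vertical axis) and DMSO cells (horizontal axis), 12728 points, with 4 gene lists coloured and the line of equal change. Of the contractile genes 26 of 28 lie below the line, and of the mitosis genes 34 of 35 lie above it, while cholesterol genes lie 12 above and 12 below.

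The difference itself, the JNKi change minus the DMSO change, passed the test in 1 gene (0.0072% of those tested), Hspg2, which encodes perlecan, a heparan sulfate proteoglycan of basement membranes. Hspg2 had 13493 and 13324 normalized reads in JNKi cells at 96 h and 6611 and 6276 in JNKi cells at 24 h, beside 16870 and 20448 in DMSO cells at 96 h and 4391 and 4377 in DMSO cells at 24 h. JNKi libraries were thus above DMSO libraries at 24 h and below them at 96 h, without overlap. The log2 change was 1.06 ± 0.09 in JNKi cells and 2.08 ± 0.09 in DMSO cells, a difference of −1.03 ± 0.13 (SE; limma adjusted p = 0.00711). The estimate kept its direction in every alternative run, but the adjusted p was 0.0641 and 0.0535 when replicate 2 of DMSO at 24 h or 96 h was left out, 0.0669 and 0.0828 when replicate 1 or 2 of JNKi at 96 h was, and 0.532 in a model of the groups compared alone. Over all genes tested, 614 differences (4.42%) had an unadjusted p under 0.05. edgeR called 1 gene and DESeq2 10. In limma with a replicate block within each time, 46 genes passed, 42 lower and 4 higher, and 1516 had an unadjusted p under 0.05. Beside Hspg2 the 46 included the matrix and contractile genes Lama5, Lamb2, Col4a1, Col4a2, Agrn, Tnc and Tagln. They also included genes of other kinds, such as Btg2, Dusp1, Vil1, Fat1 and Erbb2, lower, and Sprr2h, Esd and Gclm, higher. All of these except Hspg2 were named after their values were seen. Same-numbered libraries of both arms deviated together at 24 h (r = 0.73) and 96 h (r = 0.53), so the count of differences depends on whether these numbers are taken as pairs, which the labels do not say.

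A missed threshold does not show equal change, so the width of the interval matters. Of the 7275 members called the same way in both arms, 6054 (83.2%) had a 95% interval of the difference within 2-fold either way. For a member that changed less than 2-fold, such an interval can hold a difference as large as the change itself. The 83.2% therefore does not show equal change for those members. The median half-width over members was 0.39 on the log2 scale. Of 2239 that changed at least 2-fold in both arms, 1213 (54.2%) had such an interval. Cdh1 had 8279 and 7045 normalized reads in JNKi cells at 96 h and 13779 and 13911 at 24 h, beside 10992 and 7394 in DMSO cells at 96 h and 11689 and 10598 at 24 h; it fell in JNKi cells and did not pass in DMSO cells (−0.30, adjusted p = 0.066), and the difference of −0.55 (95% interval −0.97 to −0.14) did not pass (adjusted p = 0.98). For Fn1 the difference was −0.81 (−1.34 to −0.27), for Tagln −1.0 (−1.65 to −0.35) and for Zeb2 the changes were 1.15 in each arm.

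Matrix and contractile genes lay mostly on one side of 0, as did genes of several other lists. In the basement membrane list 13 of 16 differences were below 0 and the median was −0.54, with median changes of 0.95 in JNKi cells and 1.29 in DMSO cells. In the contractile list 26 of 28 were below 0 (median −0.39), in the interstitial matrix list 21 of 27 (−0.29) and in the immediate-early list 21 of 24 (−0.27). The same side held 32 of 37 axon guidance genes (−0.29), 27 of 34 junction and polarity genes (−0.18) and 12 of 15 integrin genes (−0.16). In the mitosis list 1 of 35 was below 0 (median 0.29), and in the proteasome list 0 of 33 (0.15). The heat shock and ribosomal protein lists had 1 of 26 (0.12) and 4 of 56 (0.17) below 0. Over all members 49.2% were below 0, with a median of 0.00. Genes of one list share libraries and are not independent, and of these lists only Hspg2 passed the test of the difference in the model without a replicate block.
Transcript length moved with the same quantity. In 5 groups of even size by length, from short to long, of the 12592 members with a length, the median difference was 0.07, 0.03, 0.00, −0.01 and −0.06, and the median JNKi change was −0.28, −0.10, 0.02, 0.10 and 0.23. With the length trend of each library removed, the median difference of the contractile list was −0.38, that of the basement membrane list −0.49 and that of the proteasome list 0.09. Lists of short transcripts moved more. The ribosomal protein list went from 0.17 to 0.07, with 7 of 56 below 0. The respiratory chain list went from 0.12, with 8 of 52 below 0, to 0.03, with 21 of 52 below 0.

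**Figure D5:**
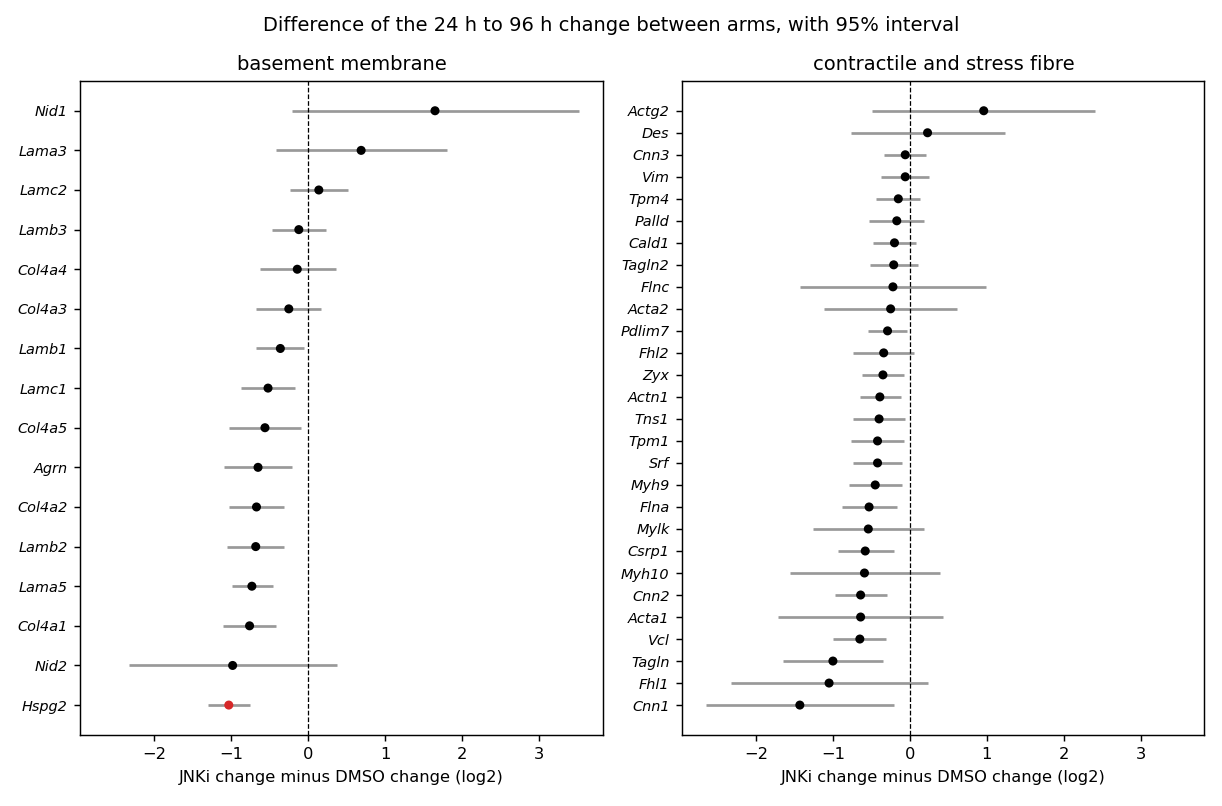
JNKi change minus DMSO change (log2, horizontal axis) with its 95% interval for the measured genes of the basement membrane list (16, left) and the contractile list (28, right); red marks the gene that passed the adjusted test, Hspg2 at −1.03. The estimates of 13 and 26 genes lie below 0.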

How the data were processed

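RNA of NmuMG cells was sequenced by the submitters. Per the submitters' processing notes, the tools were TopHat, HTSeq and DESeq on the build mm9; versions and strand use in counting: not given in the sources used here. Overlapping, antisense and near-identical genes therefore remain uncertain. The signal deposited by the authors for the JNKi and DMSO libraries is the normalized read count of 20261 genes, with 1 decimal. Low values were whole multiples of a step per library, and dividing by it gave whole reads (100.0% of values under 200 reads within 0.1 of a whole number), used for depth and for edgeR and DESeq2. The table of the 15 time-course samples was not used here. No column of another sample was found.

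Values were analysed as log2(value + 1) with limma 3.58.1 (R 4.3.3) and an intensity trend, with 1 mean for each of 10 groups in a model of 20 libraries, for the 13896 genes whose mean reached 10 in 1 group or more. Tests were two-sided; Benjamini-Hochberg adjustment ran over all of them, and the threshold was 0.05. The difference between arms was the interaction contrast. SE is the model's; intervals are at 95%. edgeR 4.0.16, DESeq2 1.42.0, other pseudocounts, filters, scalings, blocks and left-out libraries were alternatives. The model was also run on simulated reads with independent libraries, no time response and changes in some genes of JNKi at 96 h only. That setting differs from these data, so no conclusion is drawn from it.

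Members and the 46 gene lists, written from general knowledge, were chosen with earlier results of these data known. Named genes were the 12 highest and 12 lowest changes with a mean of at least 50 in either group and no overlap, genes passing the difference test, 21 fixed genes, up to 4 of each list and the largest first and last steps. Asns, Vegfa, Hk2, Hist1h1d and other list members given by value were named after their values were seen. One gene that the rule named is not reported here. Transcript lengths came from GENCODE and promoter windows from RefSeq on GRCm38.p6, matched by symbol, with no coordinate converted from mm9.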

Additional observations from a re-analysis of the deposited data

Results flagged for a closer look

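Hspg2 stands out because its change from 24 h to 96 h differed between arms by the interaction test: −1.03 on the log2 scale for JNKi minus DMSO (limma adjusted p = 0.00711), with both JNKi libraries below both DMSO libraries at 96 h and above them at 24 h. Groups of 2 libraries are too small for a test of outlying samples. Depth differed between the times, and its part in this value was not tested beyond the thinned reads, which gave −1.04. With the length trend of each library removed, the Hspg2 difference was −0.88 (limma adjusted p = 0.0317).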

How the results depend on the processing

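The 8315 calls of JNKi at 96 h against 24 h stayed within 1.5 times under every alternative run, between 6620 and 8404 with 1 library left out. The difference between arms gave 2 calls with upper quartile scaling, without the intensity trend and with thinned reads, 10 with DESeq2, 0 with the groups compared alone and 0 to 2 with 1 library left out. A replicate block within each time gave 46 calls for that difference, 42 lower and 4 higher, Hspg2 among them. Same-numbered libraries of both arms deviated together at 24 h (r = 0.73), 48 h (r = 0.59), 72 h (r = 0.72) and 96 h (r = 0.53), with r = 0.07 at 7 days, a hint from the data and not from the design. Between times r was 0.51 for JNKi at 24 h with JNKi at 48 h and 0.55 for DMSO at 24 h with JNKi at 48 h. It went down to −0.39 for DMSO at 48 h with DMSO at 72 h. Likeness was thus not confined to pairs within a time. The labels name no shared culture or day, and a time holds only 2 numbers, so the model without a block was kept. A replicate block over all libraries gave 38 calls for 72 h against 48 h and left the other counts within 1.5 times.

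For 72 h against 48 h the count of 16 became 5 with a pseudocount of 8, with a mean of at least 50, with the filter on the groups compared and with edgeR, 3 with no filter or at least 50 reads in both JNKi groups, 9 without the trend, 0 with the groups compared alone, 198 with DESeq2, 1 with thinned reads or without the 7 day libraries, and 1 to 39 with 1 library left out. For 48 h against 24 h it was 0 with the groups compared alone and 1474 to 3205 with 1 left out, and for 96 h against 72 h 2037 to 4147. The share of DMSO calls also called with JNKi, 84.6% over all genes tested, was 85.4% with a pseudocount of 8, 82.7% with no filter, 87.1% with a mean of at least 50 or at least 50 reads in both JNKi groups, 86.0% with the filter on the groups compared, 85.9% with those groups alone, 80.9% with thinned reads, 85.8% without the 7 day libraries, and 69.6 to 90.7% with 1 left out. The minimum of 50 reads and the models without the 7 day libraries were chosen after seeing the data.

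Among 215 named genes, 11 of the gene-by-setting values changed sign, the length trend aside, all of genes that did not pass: Areg, Esrp2 and Map4k4 became 0.02, 0.03 and 0.03 with upper quartile scaling, and with 1 library left out values ranged over −0.29 to 0.25 for Areg, −0.04 to 0.01 for Esrp2, −0.09 to 0.53 for Irf1, −0.05 to 0.01 for Map4k4, −0.21 to 0.00 for Mapk9, −0.20 to 0.31 for Phgdh and −0.25 to 0.01 for Wnt7b. With the length trend removed Areg, Ftl1 and Notch2 became 0.27, 0.27 and −0.14. Upper quartile scaling moved the median change of all genes tested to 0.112, against 0.066. The causes were not tested. With 2 libraries per group, the 95% interval of the difference had a median half-width of 0.39 on the log2 scale over members. The interval is not adjusted for the number of genes, and the adjusted threshold is stricter. Differences of that size and larger could therefore be missed for many genes.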
